A study of Mus musculus with 14 samples.

Results

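Numbered zinc finger protein genes of the mouse carry the symbol Zfp followed by a number alone. All 165 such genes among the 10980 of the deposited expression table were taken, leaving out Zfp36, which encodes a CCCH-type protein that destabilises messenger RNA. The 12 other symbols that begin with Zfp, such as those with a letter after the number, were not counted. The choice rests on the symbols and used no measured value. RNA was sequenced from full thickness back skin of C57BL/6 mice, labelled wild type, whose fur had been removed before exposure to a mixed ultraviolet (UV) source. Of the 12 libraries taken after UV, the times of 0.5, 12 and 24 h had 2 each and those of 2 and 6 h had 3 each, and they were compared with 2 libraries of unirradiated skin (0 h). All mice shared strain, genotype and depilation, and neither UV dose nor age is known here. Whether the libraries of a time point came from separate mice is unstated, so p-values measure the spread between these samples, which may be technical.

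Most of these genes encode C2H2 zinc finger proteins, in which each finger is a short loop held by a zinc ion through cysteines and histidines, and rows of fingers read DNA. Many also carry a KRAB domain, which recruits the co-repressor Trim28 (KAP1) and through it the histone methyltransferase Setdb1 to silence retroelements and imprinted genes. Others carry a SCAN domain, through which such proteins pair with each other, and some bear the name for historical reasons and work in translation, in the spindle or in the cytoskeleton. In skin, Zfp750 is a regulator of the late steps of keratinocyte differentiation.

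The libraries fall into 3 sets by number format and column header, except that the 0 h library of set 2 was placed by its correlation. Set 1 has 6 libraries (1 per time), set 2 has 5 (0, 2, 6, 12 and 24 h) and set 3 has 3 (0.5, 2 and 6 h). Reads recovered on the listed genes numbered 12327907 to 15550419 in the 8 libraries of sets 2 and 3. Reads outside these genes are not counted, so the full sequencing depth is unknown, and set 1 gave no read numbers. Levels are in FPKM (fragments counted per kilobase of transcript and scaled to library size), and changes are differences of log2(FPKM + 1) from limma with the set as a term, called at an adjusted p under 0.05 over all 10980 genes. The +1 makes the change of low genes look smaller than it is. In whole skin, fewer cells of a type and less RNA per cell cannot be told apart.

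The coding sequences of the 165 genes were read from the GENCODE M21 annotation, and 157 of them hold at least 1 C2H2 finger pattern, with a median of 9 and a highest count of 37 in Zfp142. At least 5 fingers were present in 127 of the 165, against 68 of the 10370 other genes with a coding sequence. A KRAB pattern was found in 62 of the 165, against 7 of the 10370 others, and a SCAN pattern in 6, against 12 others. The 62 genes with KRAB had a median of 11 fingers and the 103 without it a median of 7. The 8 genes with no finger pattern were Zfp185, Zfp330, Zfp365, Zfp503, Zfp703, Zfp750, Zfp839 and Zfp935. On the genome (RefSeq, GRCm38.p6) 40 of the 165 lay on chromosome 7 and 16 on chromosome 17, and 43 lay in 11 clusters, defined as 3 or more of these genes each at most 200 kb from the next.

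The stretch before the start site is shown for Zfp60, Zfp866 and Zfp628, since the first pair fell and the last rose 2 h after UV. Each is the 250 bases upstream of the start site in the RefSeq promoter table (GRCm38.p6), 5′ to 3′ on the strand of the gene, with every CG dinucleotide in capitals. Zfp60 lies on the plus strand with its window at chr7:27731159-27731408 and 14 CG, Zfp866 on the minus strand at chr8:69774912-69775161 and 8 CG, and Zfp628 on the plus strand at chr7:4914967-4915216 and 17 CG. The RefSeq gene record of Zfp628 begins at 4915181, so the end of its window lies inside that record, while the windows of Zfp60 and Zfp866 end at the edge of theirs.
Zfp60: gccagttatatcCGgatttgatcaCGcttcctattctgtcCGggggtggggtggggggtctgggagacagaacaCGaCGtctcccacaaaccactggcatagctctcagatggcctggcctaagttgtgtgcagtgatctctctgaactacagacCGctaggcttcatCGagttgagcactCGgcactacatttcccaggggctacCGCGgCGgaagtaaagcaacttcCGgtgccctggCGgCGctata
Zfp866: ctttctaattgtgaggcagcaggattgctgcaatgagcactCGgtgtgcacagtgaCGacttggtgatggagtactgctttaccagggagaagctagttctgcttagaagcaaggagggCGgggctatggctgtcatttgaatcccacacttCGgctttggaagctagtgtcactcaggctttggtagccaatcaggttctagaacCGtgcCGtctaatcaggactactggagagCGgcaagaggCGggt
Zfp628: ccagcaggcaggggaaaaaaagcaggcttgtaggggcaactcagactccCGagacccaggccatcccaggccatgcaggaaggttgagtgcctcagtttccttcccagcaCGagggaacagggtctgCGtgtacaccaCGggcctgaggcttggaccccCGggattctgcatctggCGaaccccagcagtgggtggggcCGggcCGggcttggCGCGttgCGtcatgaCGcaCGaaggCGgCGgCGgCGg
Over the 135 zinc finger genes with a promoter in the RefSeq table, the median was 13 CG per 250 bases, with quartiles of 9 and 18.5. Over 8300 other genes of the expression table it was 16, with quartiles of 10 and 23.

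Zinc finger genes were expressed at low levels. Their mean FPKM over the 14 libraries had a median of 6.32 and quartiles of 4.22 and 12.2, against a median of 14.1 over all genes. Zfp472 was lowest with a mean of 2.64 and Zfp750 highest with 102.9, and 113 of the 165 were below 10 FPKM. None of the 165 was listed at 0 in any library, and each had at least 9 recovered reads in every library of sets 2 and 3, with a median of 230 to 346 per library. The share of the listed FPKM held by the 165 genes was 0.247% to 0.304% over the libraries of set 1, 0.370% to 0.387% over those of set 2 and 0.236% to 0.276% over those of set 3.

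**Figure D1:**
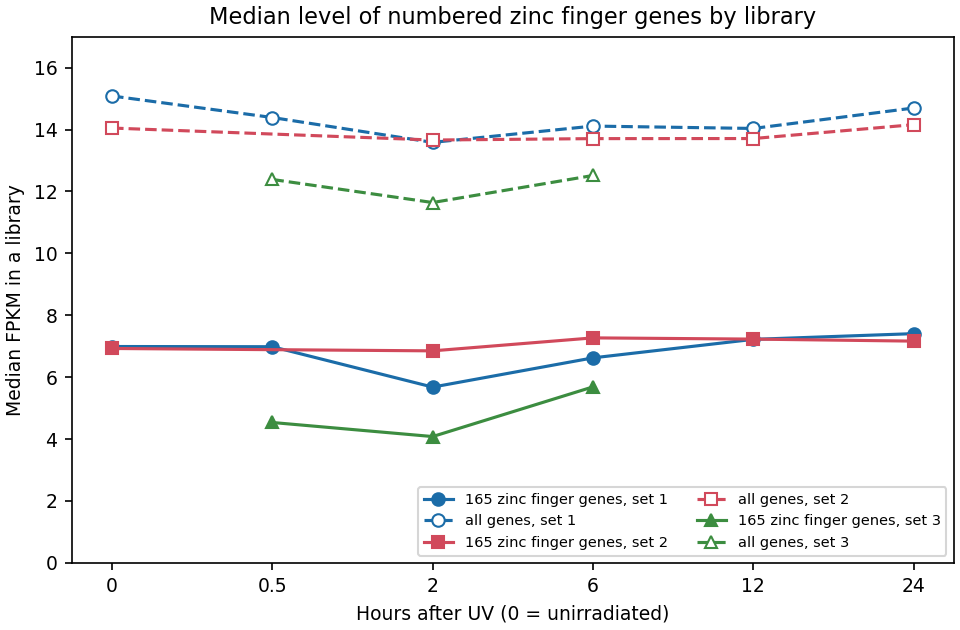
Median FPKM of the 165 numbered zinc finger genes (filled symbols, solid lines) and of all 10980 genes (open symbols, dashed lines) in each of the 14 libraries, by hours after UV and library set. In each library the zinc finger median lies below the median of all genes, and set 3 is the lowest at 0.5, 2 and 6 h, with 4.54, 4.08 and 5.69 FPKM.

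The 10 highest genes were Zfp750, Zfp207, Zfp185, Zfp703, Zfp664, Zfp598, Zfp706, Zfp740, Zfp266 and Zfp219, with mean FPKM from 102.9 down to 23.9. Zfp207 encodes a kinetochore and spindle protein also linked to splicing, Zfp185 an actin-binding LIM protein, Zfp703 a transcriptional cofactor, Zfp598 a ubiquitin ligase that senses collided ribosomes, and Zfp706 a small single-finger protein. The sets differed more than the times did for many of these genes. Taking the mean of the 2 h and 6 h libraries, 113 of the 165 were lower in set 3 than in set 2 and 130 lower than in set 1, with median differences of -0.54 and -0.49 in log2(FPKM + 1). Over all genes the medians were 0.026 and -0.12. Genes with 10 or more fingers differed more, by a median of -0.91 against set 2 and -0.67 against set 1, than those with 0 to 4 fingers, at -0.26 and -0.34. Set 3 holds no unirradiated library, so it bears on the later changes only through its 0.5, 2 and 6 h libraries.

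At 0.5 h after UV no zinc finger gene was called by limma, with 5 of the 165 at an unadjusted p under 0.05 and 1 in the fit without the set. Of all 10980 genes 0.00911% were called higher and 0.0911% lower at this time. The smallest p-values belonged to Zfp950 at -0.70 ± 0.26 (log2, standard error), Zfp467 at -0.51 ± 0.19, Zfp655 at -0.36 ± 0.15, Zfp511 at 0.36 ± 0.16 and Zfp1 at 0.30 ± 0.13, with adjusted p of 0.41 to 0.48. The median change of the 165 was -0.059, beside -0.061 in other genes of similar mean FPKM. It turned to 0.051 under quantile normalization, beside 0.036 in similar genes, and was -0.28 without the set, beside -0.14.

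At 2 h after UV, 3 zinc finger genes were called lower than at 0 h, Zfp60, Zfp397 and Zfp866, and 1 was called higher, Zfp628. The 3 lower are 1.82% of the 165, beside 2.56% of all 10980 genes called lower, and the 1 higher is 0.606%, beside 0.228% called higher. Zfp60 and Zfp866 encode KRAB zinc finger proteins of 19 and 12 fingers, Zfp397 a SCAN protein of 10 fingers, and Zfp628 a protein of 16 fingers without KRAB. At an unadjusted p under 0.05 there were 37 lower and 3 higher. The comparisons of each time with 0 h share the same 2 unirradiated libraries.

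Zfp866 had 3.15, 4.15 and 0.962 FPKM in sets 1, 2 and 3 at 2 h, against 6.56 and 6.81 FPKM in sets 1 and 2 at 0 h. All 3 libraries at 2 h lie below both unirradiated ones, and the change was -0.80 ± 0.14 with an adjusted p of 0.023. Zfp60 had 2.03, 3.11 and 0.807 FPKM in sets 1, 2 and 3 at 2 h, against 6.10 and 6.68 FPKM in sets 1 and 2 at 0 h. The groups do not overlap here either, and the change was -0.95 ± 0.19 (adjusted p 0.0298). Zfp397 had 2.65, 4.92 and 0.574 FPKM in sets 1, 2 and 3 at 2 h, against 5.88 and 8.29 FPKM in sets 1 and 2 at 0 h. Its libraries at 2 h were again all lower than those at 0 h, with a change of -0.80 ± 0.17 (adjusted p 0.0381). In set 3 these genes were already low at 0.5 h, with 2.08 FPKM for Zfp866, 0.894 for Zfp60 and 1.01 for Zfp397.

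Zfp628 had 12.0, 7.23 and 12.5 FPKM in sets 1, 2 and 3 at 2 h, against 7.75 and 3.93 FPKM in sets 1 and 2 at 0 h. The groups overlap across sets, since set 2 at 2 h lies below set 1 at 0 h, but within each set the 2 h library is the higher one. The change was 0.70 ± 0.13 (adjusted p 0.0243). Zfp644, whose product binds the histone methyltransferases Ehmt1 and Ehmt2, followed at -0.63 ± 0.15 and did not pass (adjusted p 0.0572). With the set left out of the model none of the 165 was called, nor was any other gene (0% of all genes). Of the 165, 13 had an unadjusted p under 0.05 in that fit. Leaving out 1 library ended the call of Zfp866, Zfp628, Zfp60 and Zfp397 in 4, 4, 5 and 10 of 14 cases: among them the unirradiated library of set 1 or of set 2 for each gene, with adjusted p of 0.161 and 0.115 for Zfp866, 0.0720 and 0.202 for Zfp628, 0.161 and 0.181 for Zfp60, and 0.191 and 0.214 for Zfp397.

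The zinc finger genes as a whole had a median change of -0.15 at 2 h against 0 h (0.010 under quantile normalization of the libraries), with quartiles of -0.32 and 0.030 and 119 of 165 below 0. Other genes of similar mean FPKM had nearly the same median, -0.14, and 69.4% of them were below 0. The median over all genes was -0.063. Under quantile normalization the median of similar genes turned sign too, to 0.018. Within set 1 the median was -0.21 and within set 2 -0.061, beside -0.16 and -0.080 in similar genes. In both sets 90 of the 165 (54.5%) were lower, beside 39.6% of all genes. How many similar genes were lower in both sets was not counted.

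**Figure D2:**
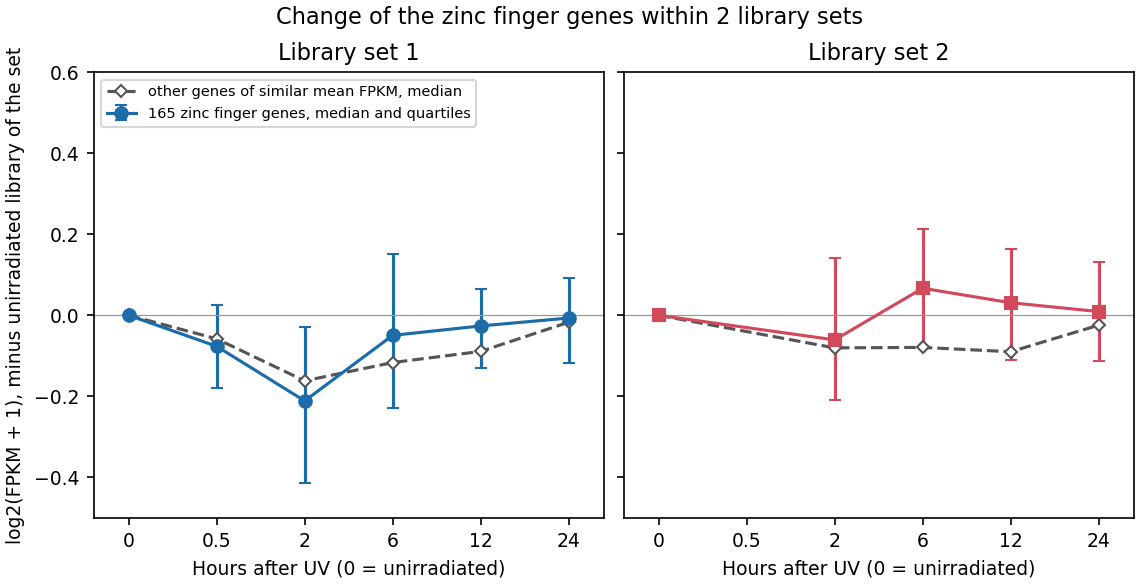
Median (symbols) and quartiles (bars) of the change of the 165 zinc finger genes in log2(FPKM + 1) from the unirradiated library of the same set, by hours after UV, for set 1 (left) and set 2 (right); open diamonds show the median of other genes of similar mean FPKM. Both curves lie below 0 at 2 h, at -0.21 and -0.061, and at 6 h the zinc finger median lies above that of the similar genes in both sets, at -0.050 beside -0.12 and at 0.067 beside -0.079.

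At 6 h after UV, 1 zinc finger gene was called higher than at 0 h, Zfp7, and 1 was called lower, Zfp706. Each is 0.606% of the 165, beside 0.902% of all 10980 genes called higher and 3.42% called lower. Zfp7, a KRAB gene with 16 fingers on chromosome 15, had 14.9, 13.8 and 9.52 FPKM in sets 1, 2 and 3 at 6 h, against 10.9 and 9.19 FPKM in sets 1 and 2 at 0 h. The library of set 3 lies between the unirradiated ones, so the groups overlap, while sets 1 and 2 were each higher at 6 h. The change was 0.48 ± 0.10 (adjusted p 0.0305). Zfp706 had 23.3, 27.3 and 33.8 FPKM in sets 1, 2 and 3 at 6 h, against 33.9 and 38.0 FPKM in sets 1 and 2 at 0 h. All 3 libraries at 6 h lie below both at 0 h, the highest of them by very little, and the change was -0.46 ± 0.11 (adjusted p 0.0426).

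Zfp653 at 0.46 ± 0.13, Zfp566 at 0.54 ± 0.15 and Zfp963 at 0.55 ± 0.16 were next at 6 h and did not pass, with adjusted p of 0.068 to 0.084. The calls of Zfp7 and Zfp706 were each lost in 9 of 14 cases with 1 library left out, with adjusted p up to 0.275 for Zfp7 and 0.222 for Zfp706, both without the unirradiated library of set 2. The zinc finger median at 6 h against 0 h was 0.038, with 63 of 165 below 0, beside -0.082 in other genes of similar mean FPKM, 60.2% of which were below 0. With the set left out of the model the zinc finger median turned to -0.11 and that of similar genes was -0.16.

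At 12 h, Zfp593 was the 1 zinc finger gene called, and it was higher than at 0 h. It encodes a single-finger protein whose yeast counterpart Bud20 takes part in the export of large ribosomal subunits. It had 11.5 and 15.6 FPKM in sets 1 and 2 at 12 h, against 8.42 and 8.79 FPKM in sets 1 and 2 at 0 h, so both libraries at 12 h lie above both at 0 h. The change was 0.59 ± 0.12 (adjusted p 0.0253), and it was lost without either unirradiated or either 12 h library, with adjusted p of 0.0668 to 0.25. This 1 gene is 0.606% of the 165, beside 0.574% of all genes called higher, and none was called lower, beside 3.23% of all genes. Zfp395 at -0.57 ± 0.18, Zfp703 at 0.35 ± 0.11, Zfp825 at -0.45 ± 0.15 and Zfp7 at 0.31 ± 0.11 did not pass (adjusted p 0.12 to 0.15).

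At 24 h no zinc finger gene differed from 0 h by limma, while 0.328% of all genes were called higher and 1.87% lower. Only 2 of the 165 had an unadjusted p under 0.05, Zfp706 at -0.28 ± 0.11 and Zfp593 at 0.29 ± 0.12, and the fit without the set had 0. Zfp335 at 0.23 ± 0.10, Zfp653 at 0.28 ± 0.13 and Zfp707 at -0.42 ± 0.20 came next, with adjusted p of 0.41 to 0.44. All 165 lay within 0.5 of 0 in log2(FPKM + 1). Their median size of change, regardless of sign, was 0.077, beside 0.142 in other genes of similar mean FPKM.

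Between 24 h and 6 h no zinc finger gene was called, beside 1.91% of all genes called higher at 24 h and 1.2% lower, and 18 had an unadjusted p under 0.05 (2 in the fit without the set). Zfp963 came nearest at -0.69 ± 0.16 (adjusted p 0.0524), ahead of Zfp7 at -0.36 ± 0.10, Zfp949 at -0.49 ± 0.14, Zfp275 at 0.49 ± 0.14 and Zfp950 at 0.75 ± 0.23. The median of the 165 was -0.034, beside 0.054 in similar genes, and turned to 0.099 with the set left out.

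The largest number of zinc finger genes changed between 2 h and 6 h, a comparison added after the values at both times had been seen. It shares the 2 h libraries with the comparison of 2 h and 0 h, so a low value at 2 h enters both. At 6 h, 9 genes were called higher than at 2 h, Zfp59, Zfp866, Zfp655, Zfp397, Zfp7, Zfp263, Zfp626, Zfp260 and Zfp207, and 1 was called lower, Zfp628. The 9 are 5.45% of the 165, beside 1.43% of all 10980 genes called higher, and the 1 is 0.606%, beside 0.656% called lower. At an unadjusted p under 0.05 there were 55 higher and 5 lower, 36.4% of the 165 in all, beside 22.3% of other genes of similar mean FPKM.

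Zfp59, with 16 fingers and a KRAB pattern, had 3.53, 4.51 and 2.13 FPKM in sets 1, 2 and 3 at 6 h, against 1.81, 2.41 and 0.149 FPKM in sets 1, 2 and 3 at 2 h. The 6 h library was higher in each set, and the change was 0.94 ± 0.17 (adjusted p 0.0295). Its low value in set 3 at 2 h rests on 9 reads, and without that library the change was 0.74 and the call was lost (adjusted p 0.156). Zfp655, which has 7 fingers, had 11.1, 10.5 and 5.02 FPKM in sets 1, 2 and 3 at 6 h, against 6.70, 5.66 and 2.59 FPKM in sets 1, 2 and 3 at 2 h. Each set again was higher at 6 h, by 0.73 ± 0.11 overall (adjusted p 0.0178).

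Zfp7 had 14.9, 13.8 and 9.52 FPKM in sets 1, 2 and 3 at 6 h, against 9.03, 9.13 and 5.56 FPKM in sets 1, 2 and 3 at 2 h. All 6 h libraries lie above all 2 h libraries, and the change was 0.63 ± 0.087 (adjusted p 0.0135). Zfp866 had 5.28, 7.27 and 2.90 FPKM in sets 1, 2 and 3 at 6 h, against 3.15, 4.15 and 0.962 FPKM at 2 h, a change of 0.76 ± 0.12 (adjusted p 0.0201). Here the groups overlap across sets, and within each set 6 h was higher. Zfp207 had 101.3, 75.9 and 59.5 FPKM in sets 1, 2 and 3 at 6 h, against 69.5, 63.4 and 36.9 FPKM at 2 h, a change of 0.49 ± 0.098 (adjusted p 0.036). Its groups overlap across sets as well.

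Zfp397 at 0.67 ± 0.15, Zfp263 at 0.63 ± 0.13, Zfp626 at 0.59 ± 0.12 and Zfp260 at 0.59 ± 0.12 had adjusted p of 0.0399 to 0.0466 and were higher at 6 h in all 3 sets. Zfp263 and Zfp397 are 2 of the 6 genes with a SCAN pattern. Zfp628 was lower at 6 h in all 3 sets, with 8.76, 5.21 and 7.24 FPKM in sets 1, 2 and 3 at 6 h, against 12.0, 7.23 and 12.5 FPKM at 2 h, a change of -0.51 ± 0.11 (adjusted p 0.0441). It is the 1 gene of the 165 called higher at 2 h against 0 h and called lower at 6 h against 2 h.

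These calls depend on single libraries of each set and on the set term. Without the set in the model, or with sets 1 and 2 alone, none of the 165 was called between 6 h and 2 h. Of all genes 0% and 0.0638% were called in these fits, and 12 and 39 of the 165 had an unadjusted p under 0.05. With 1 library left out, Zfp7 kept its call in 11 of 14 cases, Zfp655 and Zfp866 in 10, Zfp59 in 6, Zfp207 in 2 and the other 5 in 1 each; leaving out the 2 h library of set 3 ended all 10 calls, with adjusted p of 0.0857 for Zfp7 and Zfp655 and up to 0.223 for Zfp628.

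**Figure D3:**
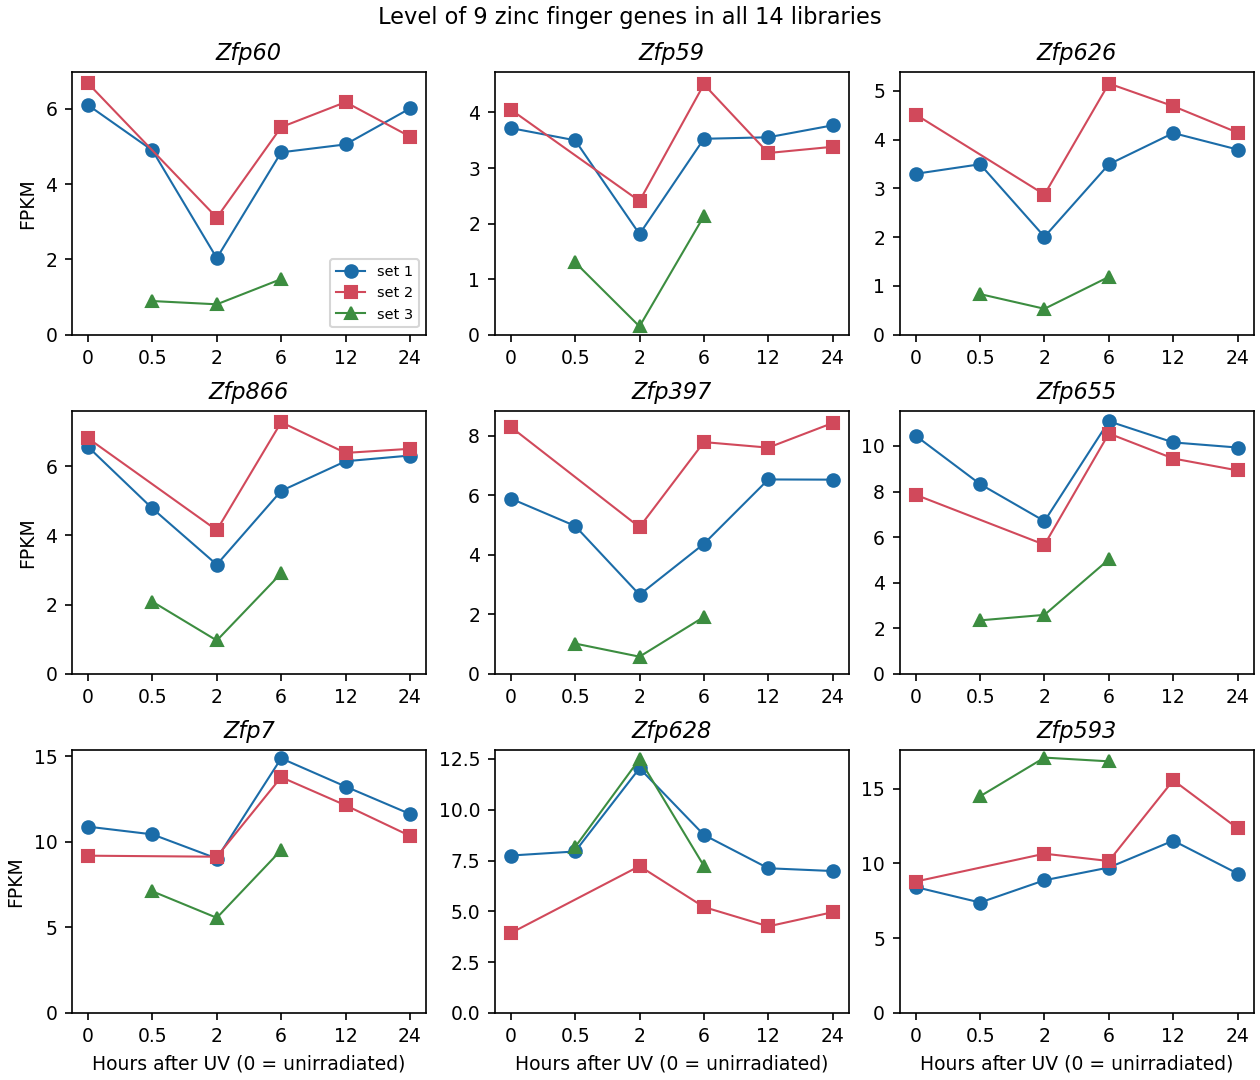
FPKM of 9 zinc finger genes in all 14 libraries by hours after UV, with each library set as its own line and symbol (y axes start at 0 and differ between genes). Zfp60, Zfp59, Zfp626, Zfp866 and Zfp397 are lowest at 2 h in every set, Zfp628 is highest at 2 h in every set, and Zfp593 is highest at 12 h in sets 1 and 2.

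The direction from 2 h to 6 h was shared widely among the zinc finger genes. The median change was 0.17, with quartiles of 0.012 and 0.34, and 125 of 165 were above 0. Other genes of similar mean FPKM had a median of 0.063 and all genes one of 0.037. The zinc finger median was 0.18 within set 1, 0.10 within set 2 and 0.31 within set 3, beside 0.041, 0.0018 and 0.13 in similar genes. It kept its sign under quantile normalization (0.097), under median-of-ratios scaling (0.15) and with sets 1 and 2 alone (0.11). In all 3 sets 84 of the 165 (50.9%) were higher at 6 h and 8 were lower, whereas of all 10980 genes 2697 (24.6%) were higher in all 3 sets. The same count was not made for genes of similar mean FPKM. No test of the difference from all genes was made, since the genes share libraries and are not independent.

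Across the moderated F test over all times, 5 of the 165 (3.03%) changed, Zfp7, Zfp655, Zfp866, Zfp628 and Zfp397, beside 4.92% of all genes and 5.58% of genes of similar mean FPKM. Their adjusted p ran from 0.024 to 0.049, and Zfp59, Zfp60, Zfp593, Zfp207 and Zfp691 followed at 0.059 to 0.081 and did not pass. Without the set in the model none passed.

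The fitted medians of both steps followed the number of fingers. Genes with 10 or more fingers (67) had a median of -0.24 at 2 h against 0 h, with 58 below 0, those with 5 to 9 fingers (60) one of -0.12, and those with 0 to 4 (38) one of -0.013, with 21 below 0. At 6 h against 2 h the medians were 0.25, 0.15 and 0.086 in the same order, with 60 of 67, 41 of 60 and 24 of 38 above 0. In all 3 sets 44 of the 67 genes with 10 or more fingers were higher at 6 h than at 2 h, as were 25 of the 60 and 15 of the 38. Of the 67 genes with 10 or more fingers, 6 were called higher at 6 h than at 2 h. So were 2 of the 60 (Zfp655 and Zfp263, with 7 and 9 fingers) and 1 of the 38 (Zfp207, with 2). Zfp628, the 1 gene called lower, has 16 fingers. Over all genes 1.43% were called higher and 0.656% lower.

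Level moves with these classes, with a median mean FPKM of 5.10, 7.79 and 10.7, as does the difference of set 3 from the other sets given above. Other genes matched in level to each class had medians of -0.17, -0.14 and -0.10 at 2 h against 0 h, and of 0.067, 0.064 and 0.054 at 6 h against 2 h. The part of level in the difference between the classes was not tested. In the fit over all genes the order of the classes was the same in both steps under quantile normalization, under median-of-ratios scaling and with sets 1 and 2 alone, alternatives added after the classes had been seen. Under quantile normalization the medians at 2 h against 0 h were -0.052, 0.031 and 0.099, and under median-of-ratios scaling -0.16, -0.035 and 0.068, so the sign turned for the 0 to 4 class under both and for the 5 to 9 class under quantile normalization alone. At 6 h against 2 h all medians kept their sign, at 0.13, 0.083 and 0.018 under quantile normalization and at 0.18, 0.099 and 0.074 with sets 1 and 2 alone. Within set 1 the medians at 2 h against 0 h were -0.27, -0.14 and -0.15 for 10 or more, 5 to 9 and 0 to 4 fingers, so the order did not hold between the classes with fewer fingers, and within set 2 they were -0.13, -0.042 and 0.060. Within sets 1 and 2, medians at 6 h against 2 h were 0.19 and 0.12 for 10 or more fingers, 0.18 and 0.11 for 5 to 9, and 0.16 and 0.035 for 0 to 4.

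**Figure D4:**
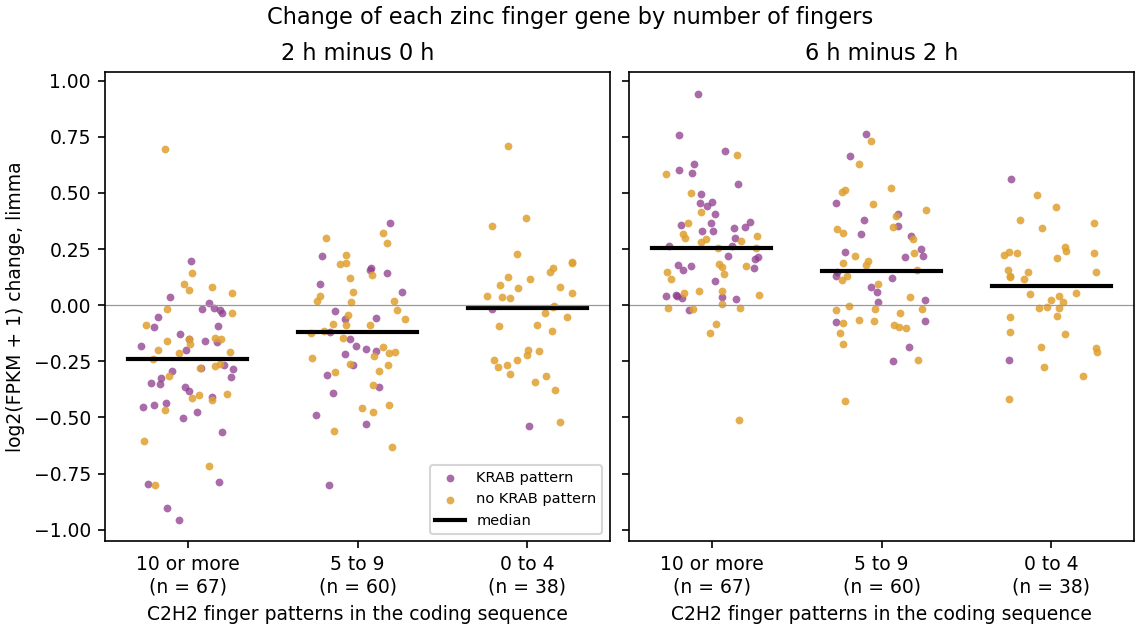
Change of each of the 165 zinc finger genes in log2(FPKM + 1) from limma at 2 h minus 0 h (left) and 6 h minus 2 h (right), by the number of C2H2 finger patterns in the coding sequence; colours mark the KRAB pattern and black bars the median of each class. The bar for 10 or more fingers is the lowest at 2 h minus 0 h (-0.24) and the highest at 6 h minus 2 h (0.25).

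The KRAB genes, which overlap with the many-fingered ones, moved likewise. The 62 genes with a KRAB pattern had a median of -0.20 at 2 h against 0 h and 0.26 at 6 h against 2 h, with 56 above 0 in the second step, 4 of them called. Other genes of similar mean FPKM had medians of -0.18 and 0.066, and under quantile normalization the KRAB medians were -0.024, with 32 of 62 below 0, and 0.13. The 103 genes without it had medians of -0.11 and 0.13, with 69 above 0 in the second step, 5 of them called. Of all genes 1.43% were called higher in that step. The median without KRAB turned to 0.013 at 2 h under quantile normalization. The mean FPKM of the KRAB genes was lower, with a median of 4.50 beside 8.55. Genes in genomic clusters (43) and outside them (122) had medians of -0.15 and -0.17 at 2 h against 0 h, and of 0.18 and 0.17 at 6 h against 2 h, and under quantile normalization the medians at 2 h turned to 0.083 and 0.010.

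Medians of single clusters ran in both directions, and differences between clusters were not tested. In the cluster at 27731409 to 27856793 on chromosome 7 (GRCm38.p6), which holds Zfp60, Zfp626 and Zfp59, all 3 genes had lower values at 2 h than at 0 h (1 called, Zfp60) and higher values at 6 h than at 2 h (2 called, Zfp59 and Zfp626), with medians of -0.79 and 0.69. Zfp626 had 3.50, 5.15 and 1.19 FPKM in sets 1, 2 and 3 at 6 h, against 2.01, 2.88 and 0.532 FPKM at 2 h. In the cluster at 4915181 to 5053723 on the same chromosome, which holds Zfp628, Zfp579, Zfp524, Zfp865, Zfp784 and Zfp580, the medians were 0.21 at 2 h against 0 h and -0.11 at 6 h against 2 h, with 5 of 6 below 0 in the second step and Zfp628 called in both. Within set 1 the medians of this cluster had the other sign, -0.036 and 0.20, and within set 2 they were 0.29 and -0.16, and with sets 1 and 2 alone the second median turned to 0.025. The cluster at 47835633 to 48086986 on chromosome 6, with Zfp398, Zfp282, Zfp212, Zfp956, Zfp777 and Zfp746, had medians of 0.069 and 0.0023, with 0 called, and the second turned to -0.031 under quantile normalization and -0.027 under median-of-ratios scaling.

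Similar sequences limit what can be said of single genes. Of all words of 50 bases in the coding sequence, 112 of the 165 genes share none with transcripts of another GENCODE gene, 21 share more than 10% and 7 more than 50%. Zfp59 shares 65.2% (most with the gene model Gm7452), Zfp706 92.2%, Zfp963 81%, Zfp7 19.6%, Zfp866 18.7%, Zfp60 7.42% and Zfp626 3.44%, so their values could hold reads of those copies. Zfp397, Zfp655, Zfp263, Zfp628, Zfp593 and Zfp207 share none. How the authors treated reads with several matches and whether the libraries keep strand is not stated in the labels.

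Zinc finger genes outside the naming rule gave a comparison by sequence. The 68 other genes with 5 or more finger patterns, among them Zbtb, Zkscan, Zscan and Prdm genes, Ctcf and Bcl6, had a median mean FPKM of 6.53. Their median change was -0.21 at 2 h against 0 h, with 55 below 0, and 0.19 at 6 h against 2 h, with 52 above 0. Genes of similar mean FPKM had medians of -0.15 and 0.062. Under quantile normalization the medians of the 68 were -0.016, with 36 below 0, and 0.096. At 2 h against 0 h 6 of them (8.82%) were called lower, beside 2.56% of all genes, and 0 higher. At 6 h against 2 h 4 (5.88%) were called higher, beside 1.43% of all genes, and 1 (1.47%) lower, beside 0.656%. In all 3 sets 33 of the 68 were higher at 6 h than at 2 h.

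By role, neither gene of epidermal differentiation, Zfp750 and Zfp185, passed the test. Zfp750 had 116.1, 117.4, 126.8, 76.9, 107.96 and 105.6 FPKM in set 1 at 0, 0.5, 2, 6, 12 and 24 h, and 87.8, 119.7, 88.9, 102.7 and 103.6 FPKM in set 2 at 0, 2, 6, 12 and 24 h. Both sets were highest at 2 h, but the change was 0.23 ± 0.15 at 2 h against 0 h and -0.42 ± 0.13 at 6 h against 2 h, and neither passed (adjusted p 0.39 and 0.102). Zfp185 changed by 0.030 at 2 h and 0.29 at 6 h against 0 h, with adjusted p of 0.914 and 0.249.

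Of the genes linked to fat cell formation, Zfp516 (an activator of brown fat genes), Zfp467 (which favours fat over bone cells in mouse marrow stroma) and Zfp638 (a cofactor of C/EBP proteins) had changes of -0.40, -0.28 and -0.52 at 2 h against 0 h, none of them called. Of the genes linked to p53 and genome stability, Zfp148, Zfp365, Zfp668 and Zfp830, none was called, and their changes against 0 h lay between -0.27 and 0.069 at 2 h, and between -0.12 and 0.19 at 6 h. The silencing factors Zfp445 (which protects imprints), Zfp809 (which silences murine leukaemia virus sequences in embryonic cells) and Zfp932 (which represses endogenous retroviruses) had -0.35, -0.27 and -0.36 at 2 h against 0 h, and 0.46, 0.15 and 0.18 at 6 h against 2 h, again none called. Within set 1 the median of these 3 was -0.44 at 2 h and -0.49 at 6 h against 0 h, and within set 2 -0.052 and 0.083, so the sets went different ways at 6 h. Of all genes 2.79% were called at 2 h and 4.32% at 6 h against 0 h, so 0 called in lists this short says little.

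Among the genes of translation and RNA handling, Zfp207 and Zfp706 passed as described, and Zfp598, Zfp622, Zfp106, Zfp326 and Zfp346 did not pass at any time. Zfp598 had 0.26 at 6 h against 0 h and Zfp622, a factor of large ribosomal subunit formation, 0.17. Among 13 transcription and chromatin factors (Zfp143, Zfp281, Zfp335, Zfp384, Zfp91, Zfp410, Zfp592, Zfp687, Zfp131, Zfp217, Zfp703, Zfp644 and Zfp292) 10 were below 0 at 2 h against 0 h and 11 above 0 at 6 h against 2 h, with 0 called. The largest steps at 6 h against 2 h were those of Zfp217, a partner of the CoREST co-repressor, at 0.52, and of Zfp131 at 0.51. Zfp410, which acts on the chromatin remodeller gene Chd4, had -0.042 at 2 h against 0 h. Of all 165 zinc finger genes, 119 were below 0 at 2 h against 0 h and 125 above 0 at 6 h against 2 h. Of all genes 2.79% and 2.09% were called in these comparisons, so a short list with 0 called says little.

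None of the co-repressors that KRAB proteins call on passed the test. Of a list of 29 genes of Trim28, the histone methyltransferases, HP1 proteins, the NuRD and HUSH complexes and DNA methylation, 28 were measured (1 of them Zfp638) and 0 were called by limma in any comparison. The list's median was -0.033 at 2 h against 0 h and 0.0015 at 6 h against 2 h, with 16 and 14 of 28 below 0. Trim28 had a mean of 99.4 FPKM and changes of 0.29 at 2 h against 0 h and -0.0040 at 6 h against 2 h. Setdb1 had -0.22 and 0.25, and Smarcad1, a remodeller that binds Trim28, -0.54 and 0.47 (adjusted p 0.0656 and 0.0689). Atf7ip at -0.54 (adjusted p 0.0509) and Fam208a at -0.64 (adjusted p 0.0704) were also near a call at 2 h against 0 h. Of all genes 2.79% were called at 2 h against 0 h and 2.09% at 6 h against 2 h, so 0 called among 28 says little.

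Markers of several cell types were lower at 2 h than at 0 h. Of 4 basal keratinocyte markers all had lower values, with a median of -0.53 and 2 called, and their sums were 2439.79 to 4640.36 FPKM at 2 h, against 2851.79 and 4192.46 FPKM at 0 h. The 4 differentiated keratinocyte markers had a median of -0.68 with 0 called, and summed to 1141.35 to 2628.13 FPKM at 2 h, against 1930.3 and 4486.83 FPKM at 0 h. The 5 fibroblast markers summed to 1280.67, 1114.76 and 1409.8 FPKM in sets 1, 2 and 3 at 2 h, against 1628.15 and 3983.24 FPKM in sets 1 and 2 at 0 h, with 3 of 5 called lower. The 6 macrophage and dendritic cell markers had changes of -1.30 to -0.89 at 2 h against 0 h, with 5 called lower, and summed to 303.71 to 797.93 FPKM at 2 h, against 605.2 and 708.39 FPKM at 0 h. The 9 skeletal muscle markers had medians of 0.74 at 2 h and 0.65 at 6 h against 0 h, with 0 called, and summed to 5137.79 to 6329.34 FPKM at 2 h, against 2855.27 and 4134.47 FPKM at 0 h. At 2 h against 0 h the 4 fat cell markers had a median of -0.43, with 3 below 0. The 1 blood marker measured of 3 had -0.24. All 4 melanocyte markers were above 0, with a median of 0.26. None in these lists was called. Of all genes 2.56% were called lower and 0.228% higher at 2 h against 0 h. Between 6 h and 2 h none of the measured markers was called by limma, and the list medians ran from -0.12 in basal keratinocytes to 0.48 in fat cells, whose 4 markers summed to 1015.53 to 1644.92 FPKM at 6 h, against 835.92 to 1324.46 FPKM at 2 h. No measured marker was listed at 0 in a library of 0, 2 or 6 h. Their part in the zinc finger changes was not tested.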

How the data were processed

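The authors deposited 1 table of FPKM values for 10980 genes in 14 libraries, made with TopHat2 2.1.0, Cufflinks 2.2.1 and mm10, per the submitters' processing notes, which give no roles. Annotation, gene filter and strandedness are unstated. Every listed gene reached 1 FPKM in 2 libraries. The zinc finger genes, the gene lists and the tests were chosen with earlier results of these data known.

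Columns carry times but no replicate numbers, while the sample titles number the replicates. By the times covered, replicate 2 of the titles matches set 1, replicate 1 matches set 2 and replicate 3 matches set 3. No column names the title it belongs to. The columns were placed in 3 library sets by number format, header and correlation. The 0 h library of set 2 was placed by its correlation, 0.964 with set 2 and 0.888 with set 3. The set was made a term of the model with earlier results of these data known. All 28 pairs of 1 set deviated together from their time means, with a correlation of at least 0.411. Pairs across sets reached 0.492, so the ranges overlap. Where a time has 2 libraries, their deviations mirror each other. The median residual SD was 0.155 with the set and 0.335 without. Whole reads were recovered in sets 2 and 3 for 10952 of 10954 genes (tolerance 1e-11) for read numbers alone.

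Values were tested as log2(FPKM + 1) with limma 3.58.1 in R 4.3.3 (intensity trend, two-sided, Benjamini-Hochberg over 10980 genes, threshold 0.05, 6 residual degrees of freedom) and the code was tested on simulated data. Genes of similar mean FPKM came from 10 equal bins of mean log2(FPKM + 1), weighted by the zinc finger genes per bin. Positions and promoters came from RefSeq (GRCm38.p6; 164 matched by symbol and 1 by an older symbol). Fingers (C, 2 to 4 residues, C, 12 residues, H, 3 to 5 residues, H), KRAB and SCAN core patterns were sought in translated GENCODE M21 coding sequences, in place of a RefSeq protein table. Genes named are those called in each comparison (at least 5 by p-value), the 10 smallest F test p-values, the 10 highest levels and all in the role lists; 10 of the 42 genes in those role lists were not among the 165. Zfp580 and the clusters' genes were named for their position. Alternatives left out the set, used another pseudocount (0.1), a mean FPKM of at least 2, quantile or median-of-ratios scaling, sets 1 and 2 alone, no trend, and each library left out in turn.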

Additional observations from a re-analysis of the deposited data

How the results depend on the processing

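The replicate block is the library set, since the column headers carry no replicate numbers, although the sample titles do. Without the replicate block none of the 165 was called in any comparison: 0 at 2 h, 6 h and 12 h against 0 h, 0 at 6 h against 2 h and 0 in the F test. Without the block 0% of all 10980 genes were called as well in each comparison of 2 times. The medians without it were -0.28 at 0.5 h, -0.34 at 2 h and -0.11 at 6 h against 0 h, and 0.099 at 24 h against 6 h. Quantile normalization called 6 (3.64%) at 6 h and 2 (1.21%) at 12 h against 0 h and 2 (1.21%) at 24 h against 6 h. Of all genes it called 5.16%, 4.34% and 3.37% in the same comparisons. The zinc finger medians under quantile normalization were 0.051 at 0.5 h, 0.010 at 2 h and 0.12 at 12 h. Median-of-ratios scaling called 2 (1.21%) at 2 h and 1 (0.606%) at 6 h against 0 h, and 1 (0.606%) at 24 h against 6 h. Of all genes 1.17%, 3.62% and 2.48% were called there. Sets 1 and 2 alone called 0 at 6 h against 2 h, 1 at 24 h against 6 h and 1 in the F test. Of all genes they called 0.0638% at 6 h against 2 h and 3.53% at 24 h against 6 h. Without the intensity trend 8 were called at 2 h and 1 at 6 h against 0 h, and 1 at 24 h against 6 h. Within set 3 the median at 6 h against 2 h was 0.31. The cause was not tested. With each library left out in turn, 0 to 6 genes were called at 2 h, 0 to 4 at 6 h and 0 to 1 at 12 h against 0 h, 0 to 3 at 24 h against 6 h, 0 to 12 at 6 h against 2 h and 0 to 6 in the F test. The medians then ran from -0.22 to -0.11 at 2 h against 0 h and from 0.12 to 0.24 at 6 h against 2 h. For the fits without the trend or with 1 library left out, the share of all genes called is not given here. The same holds for the F test of sets 1 and 2. Those counts cannot show whether zinc finger genes or all genes gained or lost calls. Of 6972 values for single named genes under an alternative, 6414 kept their direction and side of the threshold, 361 were called in neither fit and changed sign, 178 lost their call, 19 gained one and 0 reversed a called change. Most of the 6972 values belong to genes not called in that comparison in the main fit, which had no call to lose. The 178 lost calls are therefore not to be read as a share of the 6972. How often each call between 2 times was lost with 1 library left out is given above. Low levels limit the genes under 5 FPKM, and depth is unknown in set 1.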

Other observations

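By length of the gene on the genome, the other genes had graded medians in both steps. Among zinc finger genes the median at 2 h against 0 h was higher under 15 kb than in the longer classes, which were alike. At 6 h against 2 h the zinc finger medians followed no order of span. Zinc finger genes spanning less than 15 kb (70) had a median of -0.033 at 2 h against 0 h, those of 15 to 30 kb (59) -0.20 and those of 30 kb or more (36) -0.20. In 10432 other genes with a span the medians were 0.051 (3954 genes), -0.049 (2330) and -0.15 (4148). At 6 h against 2 h the zinc finger genes had 0.16, 0.21 and 0.17 in the same order of span, and the other genes -0.013, 0.051 and 0.069. These classes were chosen after the data had been seen, and no test was made.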
